A study of Mus musculus with 36 samples.

Results

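Non-pathogenic Th17 cells (Th17n) were compared with pathogenic Th17 cells (Th17p) in the absence of inhibitor, across all genes. Both were made in culture from naive CD4 T cells sorted from spleens of wild-type (WT) C57BL/6 mice and activated with plate-bound antibodies against CD3 and CD28 at 1 µg/ml each. Th17n_Vehicle cells received recombinant mouse IL-6 at 25 ng/ml and recombinant human TGF-beta 1 at 2 ng/ml. Th17p_Vehicle cells received IL-6 at the same dose, and in place of TGF-beta 1 they received IL-1b (20 ng/ml) together with IL-23 (20 ng/ml). All cells were harvested at 68 h and sorted for live cells. The members are all libraries with these labels, 3 per group and 1 from each of 3 animals, which makes 6 of the 18 libraries of the series. Each library was sequenced in 2 runs, so the comparison holds 12 of 36 deposited samples. The other libraries are iTreg cells (TGF-beta 1 at 2 ng/ml) and the same 3 cultures with 100 µM DFMO, an inhibitor of ornithine decarboxylase. The groups are cultures of sorted cells and not cells from tissue, and the labels give neither the age nor the sex of the animals.

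Th17 cells are helper T cells defined by secretion of IL-17A and IL-17F. IL-6 acts through gp130 and STAT3 in both cultures. TGF-beta signals through SMAD proteins and, with IL-6, gives mouse Th17 cells that transfer little tissue inflammation. IL-1b acts through NF-kB and IL-23 through JAK2, STAT3 and STAT4, and cells grown with them are known to be pathogenic in mouse models of autoimmunity. Both culture conditions therefore share one cytokine and differ in the others.

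Levels are CPM, the counts of a gene relative to its library total scaled by TMM, given in the order of animals 1, 2 and 3. Changes are log2 fold changes of Th17n over Th17p ± standard error from edgeR's quasi-likelihood test, so a positive value means higher in Th17n cells. A gene is called higher or lower at a Benjamini-Hochberg adjusted p under 0.05 over all 11526 genes tested. The 6 libraries hold 8463900 to 11503061 counts. The RNA came from bulk cultures, so fewer cells of a kind and less RNA per cell cannot be told apart. Markers of alpha-beta CD4 T cells were present in every library, with Cd3e at 154, 157 and 137 CPM in Th17n libraries and 170.3, 154 and 162 CPM in Th17p libraries (-0.12, called lower on log2 TPM alone, -0.25). Of the 7 tested, Cd4 (0.21 ± 0.07, call lost in 15 of 20 alternatives) and the kinase Lck (0.27 ± 0.08, lost in 8) were higher and the receptor chain Cd247 (-0.34 ± 0.10, lost in 6) was lower in Th17n cells. Of the markers of other cells, the myeloid genes Lyz2, Itgax, C1qa and C1qb were at 0 counts in all 6 libraries, as were the NK markers Klrb1c and Klra4. The share of the TPM scale (transcript abundance per length, over all genes) in the listed genes was 73.8% ± 1.15 in Th17n and 75.9% ± 1.40 in Th17p libraries (SD, n = 3 each).

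The cultures differed in 20.0% of tested genes. Relative to Th17p cells, Th17n cells held 1091 genes at a higher level (9.47% of those tested) and 1212 at a lower one (10.5%). Of these, 250 were at least 2-fold higher and 356 at least 2-fold lower, and 80 were at least 4-fold higher and 191 at least 4-fold lower. The libraries of the groups did not overlap for 2245 of the 2303 called genes, and for 37.5% of all tested genes. The median log2 fold change over all tested genes was -0.01. The split of calls moved with the scale. With no scaling factors, 822 calls were upward in Th17n cells and 1571 downward. On log2(TPM + 1) there were 626 upward and 1727 downward calls, and the median over all genes shifted by -0.10. The number of called genes was 1346 without animal 1 and 944 without animal 2.

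**Figure D1:**
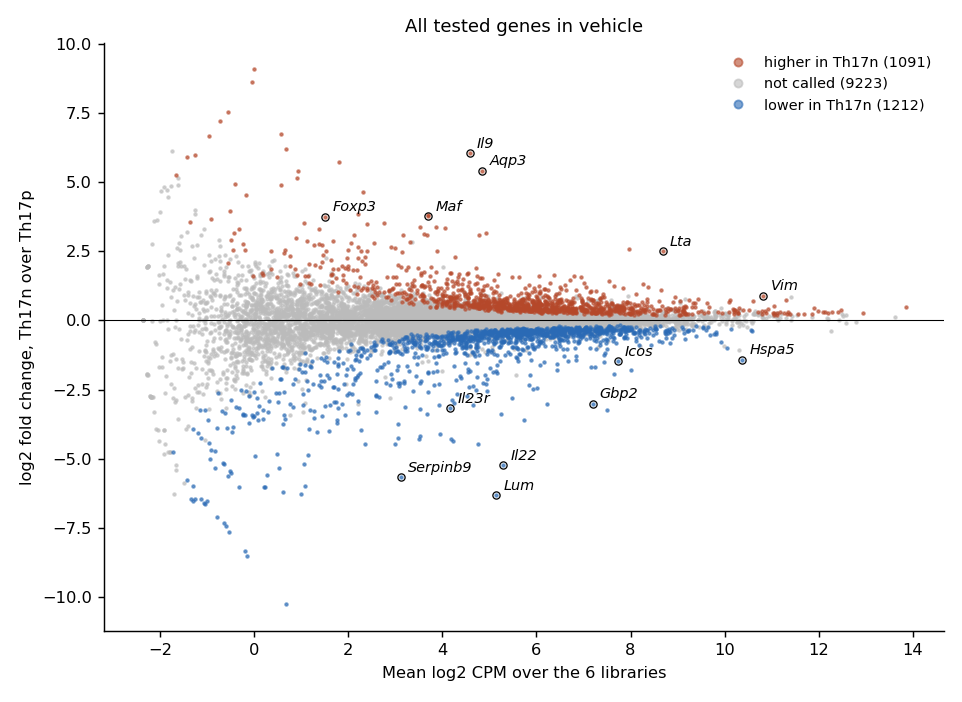
Each point is a tested gene, with the mean log2 CPM over the 6 libraries on the horizontal axis and the log2 fold change of Th17n over Th17p on the vertical axis. Red points are the 1091 genes higher and blue points the 1212 genes lower in Th17n cells, and Il9 and Lum lie far from 0 at moderate levels.

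Among genes of moderate level (a mean log2 CPM of at least 2), the largest increases in Th17n cells were those of Il9 and Aqp3. Il9, a cytokine of mast cells and mucosal T cells, had 202, 185 and 184 CPM in Th17n libraries and 3.96, 2.79 and 2.02 CPM in Th17p libraries, a difference of 6.04 ± 0.34. Aqp3, a channel for water and glycerol, had 192, 186 and 194 CPM in Th17n and 5.06, 2.44 and 5.70 CPM in Th17p libraries (5.41 ± 0.60). The Th17n libraries of both genes lay far above all 3 Th17p libraries. Cyp11a1, the enzyme that starts steroid hormone synthesis from cholesterol, had 98.4, 87.4 and 91.6 CPM in Th17n and 6.16, 13.2 and 11.9 CPM in Th17p libraries (3.14 ± 0.29). Cd5l, a secreted regulator of lipid metabolism in Th17 cells, had 13.9, 12.4 and 11.5 CPM against 0.881, 2.79 and 0.827 CPM (3.10 ± 0.69, not called without animal 1, 2.77). The remaining 11 of the 15 largest increases were Tmem176b (4.63 ± 0.51), the NAD hydrolase Cd38 (3.84 ± 0.40), the cathepsin Ctsw (3.81 ± 0.53), Maf (3.76 ± 0.46), Kctd14 (3.52 ± 0.32), the scavenger receptor Stab1 (3.49 ± 0.29), the hexosamine enzyme Gfpt2 (3.36 ± 0.25), the lipopolysaccharide-binding protein Lbp (3.36 ± 0.42), podoplanin (Pdpn, 3.35 ± 0.52), the annexin Anxa3 (3.11 ± 0.33) and Ctla2b (3.09 ± 0.36). The groups did not overlap for any of the 15, nor for 2245 of all 2303 called genes and 37.5% of tested genes. The 15 were picked as called genes with the largest increases, so this was likely beforehand. Adjusted p values in edgeR's quasi-likelihood test were at most 0.0064. Ctla2b (97.3, 77.4 and 68.3 CPM in Th17n, 10.9, 6.86 and 10.6 CPM in Th17p) and its near-identical neighbour Ctla2a (772, 619.5 and 487 CPM in Th17n, 145, 74.6 and 94.5 CPM in Th17p) may share reads, so their separate values are uncertain.

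The largest decrease among genes of moderate level was that of Lum (lumican, a secreted proteoglycan that binds collagen). It had 4.15, 3.39 and 4.12 CPM in Th17n libraries and 277, 358 and 299 CPM in Th17p libraries, a difference of -6.32 ± 0.26 (79.8-fold lower). All 3 Th17n libraries were near the low end of the scale and all 3 Th17p libraries far above them. Serpinb9, an inhibitor of granzyme B, had 0.855, 1.64 and 0.963 CPM in Th17n and 43.7, 64.04 and 69.4 CPM in Th17p libraries (-5.67 ± 0.30). Enpp2, which encodes the lysophospholipase autotaxin, had 18.2, 20.00 and 9.11 CPM in Th17n and 219, 154 and 193 CPM in Th17p libraries (-3.59 ± 0.32). Also among the largest decreases were Il22, Gzmb and Gbp7, described below with their groups, and the phosphatase Ptpn14 (-4.48 ± 0.35), the acyl-CoA ligase Acsl6 (-4.46 ± 0.47), P-selectin (Selp, -4.30 ± 0.54), Tnip3 (-4.26 ± 0.39), Serpinb5 (-4.11 ± 0.38) and Plac8 (-3.75 ± 0.71, not called without animal 3, -3.95). The receptor genes Lilrb4 (-4.35 ± 0.25) and Gp49a (-4.27 ± 0.30) are near-identical copies whose reads cannot be separated with certainty. Adjusted p values in edgeR's quasi-likelihood test were at most 0.006. The groups did not overlap for any of these 14 genes, which was likely beforehand given how they were picked (37.5% over all tested genes).

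**Figure D2:**
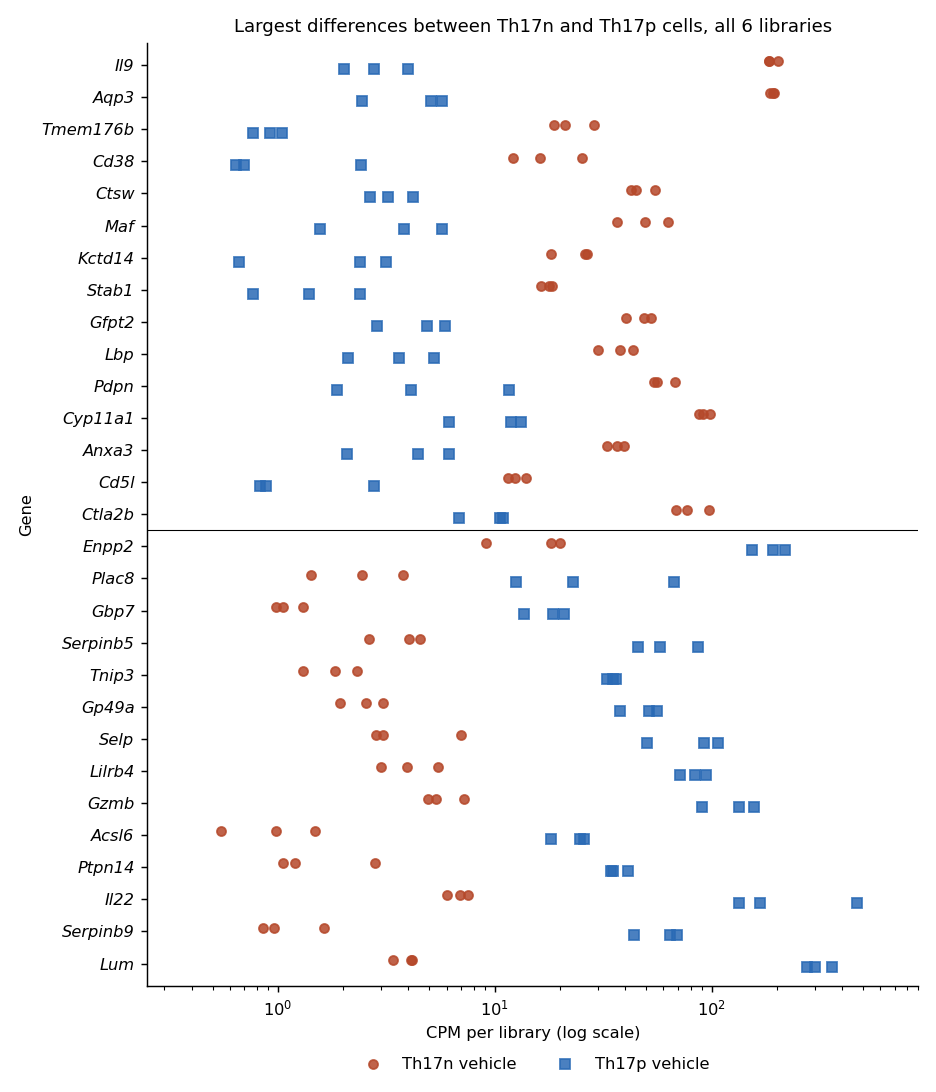
The CPM of every library is shown on a log axis for the 15 largest increases (above the line) and 14 of the largest decreases (below it), with Th17n libraries as circles and Th17p libraries as squares. The groups are apart for all 29 genes, which were picked for large called differences (37.5% of all tested genes are apart). The Th17p libraries of Plac8 spread from 12.6 to 67.2 CPM.

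Outside that ranking, further genes were low in 1 of the cultures. The 7 named here were chosen after their values were seen. Il33, an alarmin of the IL-1 family, had no count in Th17n libraries and 7.16, 24.8 and 12.1 CPM (410 counts) in Th17p libraries, at least 138-fold lower in Th17n cells against a floor of 3 counts over the group. Slc17a6, a vesicular glutamate transporter, had 0, 0 and 0.438 CPM in Th17n and 9.80, 16.97 and 15.5 CPM in Th17p libraries (-6.27 ± 0.57). The EGF receptor (Egfr) had 0.366, 0.109 and 2.89 CPM against 22.1, 18.7 and 6.89 CPM (-3.70 ± 0.73), and was not called without animal 1 (-3.02) or with the 6 libraries alone (-3.68, also with the animal as a block). In the other direction, Havcr1 (TIM-1, a phosphatidylserine receptor) had 10.1, 8.96 and 6.57 CPM in Th17n and 0.110, 0.116 and 0.0919 CPM in Th17p libraries. Its ratio of counts was 79.5-fold (95% counting interval 26.9 to 388). The laminin chain Lamc3 had 10.1, 6.78 and 9.28 CPM against 0, 0.232 and 0 CPM (125-fold higher, 34.2 to 1035). Tmem176a, the neighbour of Tmem176b, had 21.9, 21.8 and 24.3 CPM against 0.881, 0.116 and 0.276 CPM (5.71 ± 0.63). Iltifb belongs with Il22 below.

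In Th17n cells 6 of 30 tested cytokine genes were higher and 8 lower (9.47% and 10.5% over all genes). Their median log2 fold change was -0.09 (-0.01 over all genes). The lineage cytokines did not pass the test. Il17a had 166, 226 and 251 CPM in Th17n and 345, 531 and 359.6 CPM in Th17p libraries (-0.94 ± 0.46, adjusted p = 0.19 in edgeR's quasi-likelihood test). Il17f had 855, 595 and 771 CPM against 1539.8, 1350.0 and 1370.1 CPM (-0.94 ± 0.36, adjusted p = 0.088). All 3 Th17n libraries lay below all 3 Th17p libraries for both genes. Il17f was called in a fit of the 6 libraries alone (-0.94), and both genes when that fit held the animal as a block (-0.93 for Il17a and -0.95 for Il17f). Per length, Il17f was the most abundant of them, at 644 ± 121 TPM in Th17n and 1348 ± 94.7 TPM in Th17p libraries, against 189 ± 49.3 and 392 ± 88.6 TPM for Il17a (SD, n = 3 each). Il21, an autocrine factor of Th17 cells, was higher in Th17n cells, with 248, 226 and 248 CPM in Th17n and 154, 121 and 97.8 CPM in Th17p libraries (0.96 ± 0.17). Lta (lymphotoxin alpha) had 1034, 926 and 984 CPM against 180.4, 158 and 181 CPM (2.50 ± 0.12, adjusted p = 5.2e-11). Tnf was higher by 0.70 ± 0.10 and the TNF family ligand Tnfsf14 by 0.63 ± 0.15 (not called without animal 1, 0.56). Tgfb1 was low and higher in Th17n cells, with 2.81, 7.10 and 4.73 CPM against 1.98, 1.74 and 1.93 CPM (1.37 ± 0.35). It was not called with run 2 alone (0.96), without animal 2 (0.95) or animal 3 (1.41) or without the Th17n library of animal 2 (1.01).

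Il22, a cytokine that acts on epithelium, was among the lowest in Th17n relative to Th17p cells. It had 7.57, 6.89 and 6.04 CPM in Th17n and 168, 469 and 134 CPM in Th17p libraries (-5.24 ± 1.06, adjusted p = 0.006), and the Th17p library of animal 2 was the highest. Its call was lost without animal 1 (-5.55) and without animal 2 (-4.49). The neighbouring near-copy Iltifb had 0.122, 0.656 and 0.263 CPM against 9.03, 17.1 and 5.60 CPM (-4.87 ± 1.17; not called without animal 1, -4.63, or without the Th17n library of animal 1, -4.53), and reads of the pair may be split between them. Tnfsf8 (CD30 ligand) had 4.88, 11.9 and 9.90 CPM in Th17n and 71.4, 66.2 and 87.7 CPM in Th17p libraries (-3.06 ± 0.23), and Il3 had 0.244, 0.984 and 0.613 CPM against 2.97, 15.3 and 12.7 CPM (-4.03 ± 0.74). Areg (amphiregulin, a ligand of the EGF receptor) had no count in Th17n libraries and 0.330, 1.74 and 1.38 CPM in Th17p libraries, at least 11.1-fold lower. Cd40lg was lower by a smaller margin (-0.53 ± 0.13, not called without animal 2, -0.45). Csf1, a growth factor of macrophages, was low, with 0, 0.984 and 0.175 CPM in Th17n and 7.38, 1.39 and 3.12 CPM in Th17p libraries. Il6 had 3 counts in Th17n and 48 in Th17p libraries, 16.1-fold lower (95% counting interval 5.19 to 80.8). Spp1 (osteopontin) had 1 count in Th17n and 51 in Th17p libraries, 51.3-fold lower (8.81 to 2067). These calls were lost without animal 1 (-2.01 for Csf1, -3.76 for Il6, -3.80 for Spp1). Csf1 also lost it without animal 3 (-3.08), without the Th17p library of animal 1 (-2.52) and in the blocked fit of 6 libraries (-3.15). Il6 lost it without the Th17n library of animal 1 (-3.45) or 2 (-3.39), and Spp1 without animal 2 (-5.07) and without the Th17p library of animal 1 or the Th17n library of animal 1 or 2 (-4.97 to -4.16). Il2 (-0.69; called with the 6 libraries alone and the animal as a block, -0.68), Il10 (0.56) and Tgfb3 (0.51) did not pass. Csf2, the inflammatory cytokine GM-CSF, had 2 counts in Th17n and 1 in Th17p libraries, and Ifng had none in either. The number of cytokine genes called lower was 4 without animal 1, 4 without animal 2, and 5 in run 1 alone or run 2 alone.

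In Th17n cells 14 of 39 cytokine receptor genes were higher and 5 lower (9.47% and 10.5% over all genes, list median 0.19). Receptors for both cytokines added only to Th17p cultures were among those lower. Il23r had 6.47, 4.37 and 7.01 CPM in Th17n and 66.3, 55.7 and 39.9 CPM in Th17p libraries (-3.17 ± 0.26, adjusted p = 2.8e-08). Il1r1, the signalling receptor for IL-1, had 3.66, 1.09 and 1.14 CPM against 22.7, 17.1 and 17.5 CPM (-3.31 ± 0.54), and the decoy receptor Il1r2 had 1.59, 3.94 and 3.94 CPM against 30.6, 20.1 and 33.4 CPM (-3.13 ± 0.42). Tnfrsf8 (CD30, the receptor of Tnfsf8) had 10.4, 10.4 and 9.72 CPM against 57.7, 49.05 and 53.4 CPM (-2.39 ± 0.29). The fifth was Il12rb2, the IL-12 receptor chain, at 148, 148 and 121 CPM against 496, 407 and 530.3 CPM (-1.78 ± 0.35; not called without animal 2, -1.94).

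All 3 tested TGF-beta receptor genes were higher in Th17n cells. Tgfbr1 had 21.1, 18.9 and 18.8 CPM in Th17n and 10.2, 7.55 and 8.73 CPM in Th17p libraries (1.15 ± 0.22), Tgfbr2 differed by 0.65 ± 0.15 and the co-receptor Tgfbr3 by 0.96 ± 0.18. Both chains that bind IL-6 were higher as well, the shared chain Il6st (gp130) at 26.2, 31.6 and 23.1 CPM against 13.7, 12.1 and 7.07 CPM (1.31 ± 0.19) and Il6ra by 0.98 ± 0.19. Further receptors that were higher were the IL-2 receptor chains Il2rb (0.78 ± 0.09) and Il2ra (0.31 ± 0.10), Ifngr2 (0.97 ± 0.11), Il27ra (0.69 ± 0.17), Il10rb (0.68 ± 0.14), Ifnar2 (0.60 ± 0.14), the TNF receptors Tnfrsf1b (0.56 ± 0.10) and Tnfrsf1a (0.52 ± 0.13), and GITR (Tnfrsf18, 0.62 ± 0.15). Without animal 2 Il10rb (0.54), Ifnar2 (0.57), Tnfrsf1a (0.47) and Tnfrsf18 (0.59) were not called, and 9 receptor genes were higher. Tgfbr2 was not called without animal 1 (0.55), and Tnfrsf1a without animal 3 (0.42) or with run 1 alone (0.42). Il2ra lost its call in 10 of 20 alternatives (0.18 to 0.34), among them without animal 1 or 2, without scaling factors and on log2 TPM. On log2(TPM + 1) 8 receptor genes in place of 5 were lower.

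**Figure D3:**
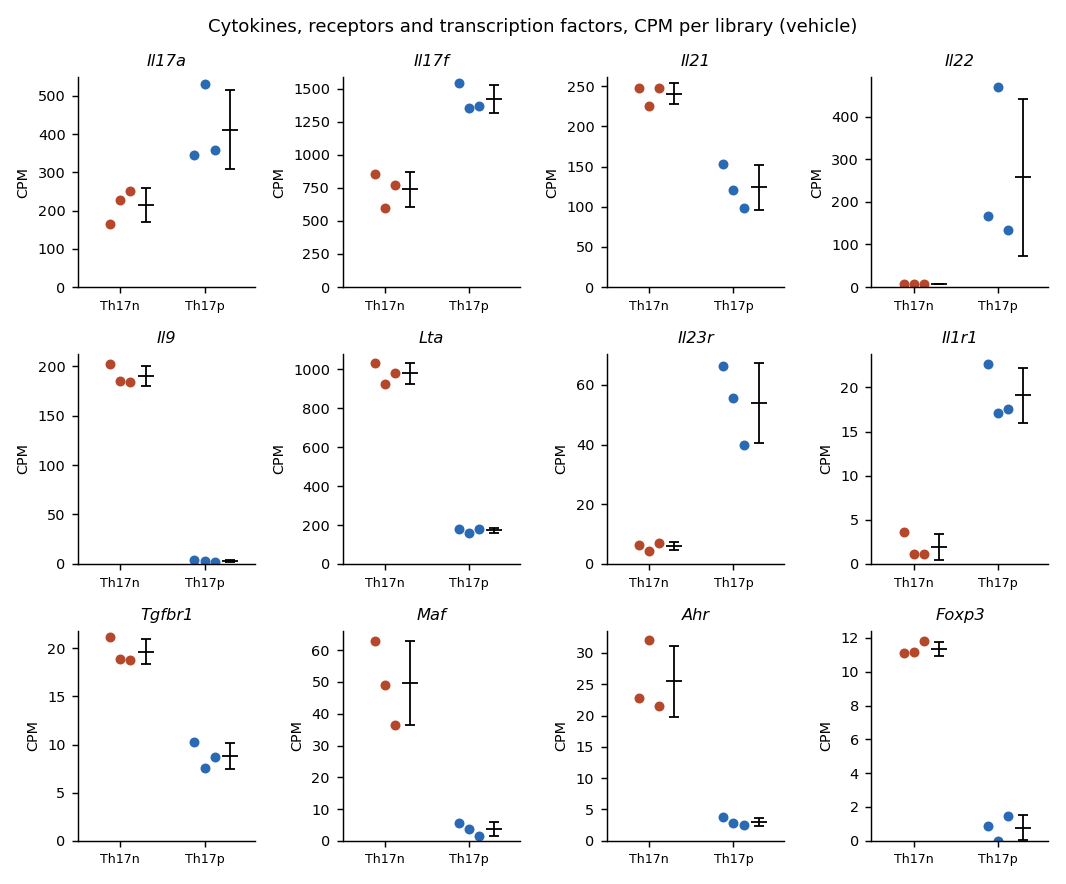
CPM of each library (points) with the mean and SD (bar, n = 3 animals) for 12 cytokines, receptors and transcription factors, Th17n on the left and Th17p on the right of each panel, each axis from 0. Il9, Lta, Il21, Tgfbr1, Maf, Ahr and Foxp3 are higher in Th17n cells, Il22, Il23r and Il1r1 are lower, and Il17a and Il17f are apart without passing the test.

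The transcription factors split evenly, with 12 of 41 higher and 11 lower in Th17n cells (9.47% and 10.5% over all genes, list median -0.17). Among the higher ones, Maf, an activator of Il10 and Il21, had 63.00, 49.2 and 36.6 CPM in Th17n and 5.72, 3.84 and 1.56 CPM in Th17p libraries (3.76 ± 0.46). Ahr, the aryl hydrocarbon receptor, had 22.8, 32.03 and 21.5 CPM against 3.74, 2.79 and 2.48 CPM (3.08 ± 0.30). Of its 6 tested partners and targets none passed, including Cyp1a1 (-3.91), Cyp1b1 (2.10) and Ahrr (1.97). Foxp3, the factor of regulatory T cells, was low in both cultures but apart, with 11.1, 11.1 and 11.8 CPM in Th17n and 0.881, 0 and 1.47 CPM in Th17p libraries (3.75 ± 0.56). Rora, a nuclear receptor of Th17 cells, had 175, 159.9 and 187 CPM against 56.03, 66.1 and 65.96 CPM (1.47 ± 0.24). The Ikaros family members Ikzf3 (1.69 ± 0.16) and Ikzf4 (1.24 ± 0.12) and the inhibitor of helix-loop-helix factors Id1 (2.78 ± 0.30) were higher. Smaller increases were those of Stat3 (0.47 ± 0.09), Foxo1 (0.48 ± 0.14), Zeb1 (0.48 ± 0.11), Runx1 (0.38 ± 0.13) and Irf4 (0.30 ± 0.08). Zeb1 was not called without animal 1 (0.35) or on log2 TPM (0.33 and 0.35). Foxo1 lost its call in 7, Irf4 in 8 and Runx1 in 17 of 20 alternatives, all 3 of them without animal 1 and without animal 2.

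Tbx21 (T-bet, the Th1 factor) was among those lower in Th17n cells and had 3.54, 5.68 and 6.48 CPM in Th17n and 19.8, 24.99 and 31.4 CPM in Th17p libraries (-2.26 ± 0.44). Nfkbiz (IkBz, a nuclear cofactor of NF-kB induced by IL-1) had 51.5, 50.4 and 49.2 CPM against 113, 169.9 and 167 CPM (-1.58 ± 0.12). Batf, which opens Th17 gene loci with Irf4, had 110.5, 119 and 123 CPM against 175, 211 and 192 CPM (-0.71 ± 0.12). Gata3, the Th2 factor, had 8.18, 7.43 and 10.9 CPM against 19.7, 20.9 and 27.1 CPM (-1.34 ± 0.24). Also lower were Etv6 (-1.03 ± 0.15), Tcf7 (-0.62 ± 0.12), Zeb2 (-1.34 ± 0.28), Id3 (-0.95 ± 0.22), Gfi1 (-0.97 ± 0.26), Fosl1 (-1.44 ± 0.39) and Bcl6 (-0.75 ± 0.22). Without animal 2 the number lower was 4, with the calls of Tbx21 (-2.34), Gata3 (-1.29), Zeb2 (-1.11), Id3 (-0.97), Gfi1 (-0.80), Fosl1 (-1.30) and Bcl6 (-0.83) lost. Gfi1 (-0.95), Fosl1 (-1.50) and Bcl6 (-0.61) also lost theirs without animal 1. Id3 was not called with the 6 libraries alone (-0.95).

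Genes of the pathways that the differing cytokines engage were read as fixed lists. Of 30 TGF-beta and SMAD pathway genes in Th17n cells 9 were higher and 1 lower (median 0.25, against 9.47% higher and 10.5% lower over all genes). The feedback gene Pmepa1 had 11.8, 11.1 and 12.6 CPM in Th17n and 4.73, 3.37 and 3.95 CPM in Th17p libraries (1.56 ± 0.22). The SMAD corepressor Skil differed by 0.65 ± 0.10, and Lrrc32 (GARP, which holds latent TGF-beta on the surface) by 1.14 ± 0.20. Smad3 (0.60 ± 0.14) and the BMP receptor Bmpr2 (0.89 ± 0.19) were also higher, with Id1 and the 3 receptors above. Smad3 was not called without animal 1 (0.52) or animal 2 (0.50) or on log2(TPM + 0.1) (0.48), and Bmpr2 without animal 1 (0.74). Smad7, the feedback inhibitor of the pathway, did not pass, at 11.4, 8.53 and 8.14 CPM in Th17n and 9.58, 6.74 and 7.81 CPM in Th17p libraries (0.21 ± 0.24). Id3 was the member that was lower.

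Of 29 IL-1 and NF-kB pathway genes 3 were higher and 5 lower (median -0.08), and the share that was higher is near that over all genes (9.47%, with 10.5% lower). Traf6, the ubiquitin ligase downstream of the IL-1 receptor, was higher in Th17n cells, with 169, 177 and 155 CPM against 78.2, 75.4 and 83.04 CPM in Th17p libraries (1.08 ± 0.10). Nfkbie differed by 0.60 ± 0.13 (not called without animal 1, 0.51). Nfkbiz and Il1r1 were the clearest of the lower ones, with Rel (-0.77 ± 0.19; not called without animal 2, -0.61) and Nfkbia (-0.36 ± 0.10; not called without animal 1, -0.39, or animal 2, -0.31). Without animal 2 there were 2 lower calls in this list. Of 26 JAK-STAT pathway genes 6 were higher and 2 lower (median 0.19). STAT3 itself and its feedback inhibitor Socs3 were in the first group, Stat3 at 765, 739 and 724 CPM in Th17n and 533, 530.3 and 539.9 CPM in Th17p libraries and Socs3 at 559, 521 and 503 CPM against 370.1, 404 and 407 CPM (0.42 ± 0.10). Cish (0.61 ± 0.07), a STAT5 target, and Jak3 (0.51 ± 0.08) were higher, and the kinase Pim2 (-0.62 ± 0.12) was lower. The number lower was 1 whichever animal was left out and 4 in the 6 libraries alone. Socs3 was not called without animal 1 (0.33) or on log2 TPM (0.30).

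Chemokine and trafficking genes went both ways in Th17n cells, with 7 of 25 higher and 11 lower (9.47% and 10.5% over all genes). Their median was -0.76. Ccr6, the receptor that marks Th17 cells, had 35.6, 37.3 and 55.5 CPM in Th17n and 8.59, 15.5 and 14.9 CPM in Th17p libraries (1.72 ± 0.20). Its ligand Ccl20 had 3.17, 7.43 and 11.3 CPM against 0.220, 1.63 and 0.184 CPM (3.51 ± 0.92). Cxcr5, the follicle homing receptor, differed by 1.37 ± 0.27, Ccr4 by 0.54 ± 0.10, Ccr8 by 1.24 ± 0.29 and Ccr7, the lymph node homing receptor, by 0.69 ± 0.16 at 2111, 2034 and 1823 CPM in Th17n and 1266, 1179 and 1246 CPM in Th17p libraries. Gpr15, a colon homing receptor, had 52 counts in Th17n and 3 in Th17p libraries, 17.2-fold higher (95% counting interval 5.58 to 86.2). Cxcr3, a receptor of interferon-induced chemokines, had 10.5, 12.8 and 9.81 CPM against 60.99, 49.3 and 61.5 CPM (-2.38 ± 0.20), and Gpr183, an oxysterol receptor, had 50.7, 42.8 and 44.9 CPM against 159.8, 172 and 151 CPM (-1.80 ± 0.16). Gpr18 (-0.76 ± 0.16), Ccr2 (-2.41 ± 0.65) and Ccr1 (-2.81 ± 0.86) were lower too, as were the chemokines Ccl3 (-3.25 ± 0.65), Ccl4 (-2.09 ± 0.47), Ccl5 (-2.44 ± 0.57), Cxcl10 (-2.42 ± 0.65) and Cxcl3 (-2.19 ± 0.69).

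Many of these chemokine calls were lost when an animal was left out, with the direction kept. Without animal 2, 3 genes were lower in place of 11, and Gpr18 (-0.81), Ccr2 (-2.12), Ccr1 (-3.27), Ccl3 (-3.25), Ccl4 (-2.17), Ccl5 (-2.65), Cxcl10 (-2.42) and Cxcl3 (-1.51) lost their calls. Without animal 1 the list held 4 higher and 7 lower calls, and Ccl20 (3.46), Ccr8 (0.95), Gpr15 (3.43), Ccl5 (-2.22), Ccr2 (-2.92), Ccr1 (-2.70) and Cxcl3 (-2.24) were not called. Without animal 3, Ccl20 (2.54), Ccl4 (-1.99), Ccl5 (-2.51), Cxcl10 (-2.43) and Ccr1 (-2.47) were not called. Without animal 2, Gpr15 (3.72) and Ccr7 (0.64) were not called either. With all animals kept, Ccl5 lost its call with DESeq2 (-2.45) and on log2(TPM + 0.1) (-2.65), and Ccl4 with the 6 libraries alone (-2.09). The calls of Ccr6, Ccr4, Cxcr5, Cxcr3 and Gpr183 held under all 20 alternatives.

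Of 20 integrin and adhesion genes 3 were higher and 5 lower (9.47% and 10.5% over all genes). Itgb8, the subunit that activates latent TGF-beta, had no count in Th17n libraries and 1.54, 3.95 and 1.84 CPM in Th17p libraries, at least 22.8-fold lower. The integrin chain Itga4 (-0.92 ± 0.18) was lower, and the chains Itgb2 (0.78 ± 0.10) and Itgb7 (0.83 ± 0.25, call lost in 9 of 20 alternatives, 0.69 to 1.00) and the selectin ligand Selplg (0.44 ± 0.08) were higher. Without animal 1 or animal 2, 3 members were lower.

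Published Th17 signatures, whose direction is part of their definition, showed these counts. Of 18 pathogenic Th17 genes 13 were lower and none higher in Th17n cells (10.5% and 9.47% over all genes, list median -2.18). Besides those above they include Icos, a co-stimulatory receptor, at 128, 123 and 130.1 CPM in Th17n and 381, 307 and 373 CPM in Th17p libraries (-1.48 ± 0.09), Lrmp (-0.96 ± 0.14), Lgals3 (-0.95 ± 0.24) and the inflammatory caspase Casp1 (-2.18 ± 0.69). Casp1 lost its call in 8 of 20 alternatives (-2.25 to -1.64), among them without animal 1 or animal 3, and Lgals3 without animal 2 (-0.74). Without animal 2 the count was 6. Of 7 non-pathogenic genes 5 were higher and none lower (median 1.69): Il9, Ikzf3, Ahr, Maf and Il6st. The lists come from earlier work on like cultures and are no independent evidence of direction.

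The cytotoxic granule list (17 tested) held 6 genes higher and 6 lower (9.47% and 10.5% over all genes). Gzmb (granzyme B) had 5.37, 7.21 and 4.90 CPM in Th17n and 134, 90.5 and 157 CPM in Th17p libraries (-4.45 ± 0.60). Its inhibitor Serpinb9 (above) and the serpin Serpinb6b were lower as well, the second at 23.2, 29.3 and 26.4 CPM against 160.0, 228 and 249.7 CPM (-3.01 ± 0.32). The granule membrane protein Nkg7 differed by -2.78 ± 0.39. Ctsw, Ctla2a (2.58 ± 0.35) and Ctla2b, a protease and a pair of cysteine protease inhibitors, were higher, as was the elastase inhibitor Serpinb1a (1.39 ± 0.37), which was not called without animal 2 (0.98) or without each of 4 single libraries (1.11 to 1.34).

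Of 32 tested genes of protein folding in the endoplasmic reticulum, 21 were lower in Th17n cells. The unfolded protein response is the program by which chaperones and degradation factors are induced when unfolded proteins gather there, through the sensors Atf6, Ern1 and Eif2ak3. None of the 32 was higher, and the list median was -0.62 (10.5% of all genes were lower). Hspa5, the chaperone BiP, had 751, 819 and 860.2 CPM in Th17n and 2087, 2199 and 2229 CPM in Th17p libraries (-1.42 ± 0.08, adjusted p = 1.7e-10). Hsp90b1 (GRP94) had 753, 759 and 748 CPM against 1508, 1501 and 1522 CPM (-1.004 ± 0.07). Creld2 had 69.7, 61.4 and 79.1 CPM against 173, 177 and 218 CPM (-1.43 ± 0.13) and Dnajc3, a co-chaperone of BiP, had 58.6, 62.96 and 71.4 CPM against 98.9, 105 and 126 CPM (-0.77 ± 0.12). The groups were far apart relative to the spread among animals for each of them. The secreted factor Manf (-1.24 ± 0.09), the BiP cofactor Sdf2l1 (-1.30 ± 0.11), the disulfide isomerases Pdia6 (-0.83 ± 0.07), Pdia3 (-0.69 ± 0.09) and Pdia4 (-0.59 ± 0.09), the lectins Calr (-0.89 ± 0.09) and Canx (-0.24 ± 0.08), and the sensor Atf6 (-0.98 ± 0.13) were lower. The degradation factors Derl3 (-1.79 ± 0.39), Herpud1 (-0.75 ± 0.12) and Syvn1 (-0.49 ± 0.12) were lower as well. The other sensors Ern1 (-0.85) and Eif2ak3 (0.37) and the transcription factor Xbp1 (0.17) did not pass. The count stayed within 1.5 times of 21 in all 20 alternatives. Derl3, chosen after its value was seen, lost its call without animal 2 (-1.86). Syvn1 lost it without animal 2 (-0.51) or animal 3 (-0.41) or with run 1 alone (-0.41), and Canx without animal 1 (-0.21), animal 3 (-0.23) or any 1 of 5 single libraries (-0.25 to -0.19).

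The promoters of 4 of these genes are shown because these genes were lower together and because ATF6 is known to bind the endoplasmic reticulum stress element. Capitals mark CCAAT followed after any 9 bases by CCACG, searched on both strands, which overlapped none of the other motifs searched. Sequences are RefSeq promoter windows on GRCm38.p6, from 250 bases before to 50 bases after the start, read along the gene. The windows are chr2:34771840-34772139 on the plus strand for Hspa5, chr10:86705395-86705694 on the minus strand for Hsp90b1, chr15:88819396-88819695 on the plus strand for Creld2 and chr14:118937682-118937981 on the plus strand for Dnajc3.
Hspa5: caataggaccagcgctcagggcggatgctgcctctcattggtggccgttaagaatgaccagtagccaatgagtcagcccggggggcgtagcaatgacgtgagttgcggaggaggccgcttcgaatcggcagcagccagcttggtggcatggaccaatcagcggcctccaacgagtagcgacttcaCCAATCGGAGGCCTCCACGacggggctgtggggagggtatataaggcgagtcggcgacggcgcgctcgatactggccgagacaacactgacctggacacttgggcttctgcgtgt
Hsp90b1: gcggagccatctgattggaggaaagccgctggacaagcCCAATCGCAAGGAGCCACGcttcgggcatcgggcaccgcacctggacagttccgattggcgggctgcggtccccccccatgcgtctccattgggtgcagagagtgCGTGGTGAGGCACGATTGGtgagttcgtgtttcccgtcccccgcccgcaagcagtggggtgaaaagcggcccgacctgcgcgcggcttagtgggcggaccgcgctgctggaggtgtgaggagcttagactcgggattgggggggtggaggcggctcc
Creld2: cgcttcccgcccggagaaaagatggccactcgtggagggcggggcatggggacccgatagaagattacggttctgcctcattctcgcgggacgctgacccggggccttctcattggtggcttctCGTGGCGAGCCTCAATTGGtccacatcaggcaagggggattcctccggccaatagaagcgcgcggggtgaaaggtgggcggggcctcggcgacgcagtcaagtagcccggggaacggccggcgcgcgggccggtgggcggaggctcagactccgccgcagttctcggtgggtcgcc
Dnajc3: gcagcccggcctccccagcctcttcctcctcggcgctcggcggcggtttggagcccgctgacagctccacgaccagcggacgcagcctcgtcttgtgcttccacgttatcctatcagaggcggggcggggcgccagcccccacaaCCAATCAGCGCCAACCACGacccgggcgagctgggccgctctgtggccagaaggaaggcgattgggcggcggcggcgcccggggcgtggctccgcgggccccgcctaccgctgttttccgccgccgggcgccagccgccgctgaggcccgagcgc
The element was found in 9 of the 26 tested list members with a window (34.6%), and all 9 were lower in Th17n cells: Hspa5, Hsp90b1, Pdia6, Calr, Canx, Dnajc3, Creld2, Syvn1 and Derl3. It stood in 16 of 9152 tested genes with a window (0.175%). Of the 17 lower members with a window 9 held it (52.9%). The first match lay 65 bases before the start in Hspa5, 126 in Creld2 and 105 in Dnajc3, and Hsp90b1 held 2 matches. The same counts of members were found in the part before the start alone. A match is a run of letters, not a measured binding site. The list holds known genes of this response and its members are among the 9152, so a high share was likely beforehand. Whether the element bears on the difference between the cultures was not tested.

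Of 53 genes of the translocon and early secretory pathway 14 were lower and 3 higher in Th17n cells (10.5% and 9.47% over all genes). Their median was -0.14. Ssr2, a translocon subunit, had 114, 132 and 132 CPM in Th17n and 257, 266 and 247 CPM in Th17p libraries (-1.02 ± 0.09). The oligosaccharyltransferase subunits Ostc (-0.62 ± 0.08) and Rpn1 (-0.49 ± 0.07), the signal peptidase subunit Spcs2 (-0.47 ± 0.07) and the cargo receptor Lman2 (-0.45 ± 0.07) were lower. Kdelr1, a receptor that returns chaperones to the endoplasmic reticulum, was higher (0.65 ± 0.09). The number lower was 23 on log2(TPM + 1) and 8 without animal 2. Of 30 genes of the amino acid response, serine and one-carbon pathways 7 were lower and 1 higher, among them the factor Atf4 (-0.48 ± 0.09), the transporter Slc38a2 (-0.55 ± 0.11) and the serine enzyme Psph (-0.46 ± 0.08). That count of 7 was 4 without animal 2 and 11 in the 6 libraries alone (12 with the animal as a block).

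Interferons act through STAT proteins and Irf9 on genes with an interferon-stimulated response element. Of 38 tested genes 24 were lower and 1, Irf8 (1.41 ± 0.19), was higher in Th17n cells (10.5% and 9.47% over all genes). The list median was -1.51. The RNA sensor Ifih1 (MDA5) had 11.1, 15.5 and 11.3 CPM in Th17n and 64.8, 85.5 and 74.9 CPM in Th17p libraries (-2.57 ± 0.26). Xaf1, a proapoptotic factor, had 20.9, 16.6 and 15.2 CPM against 55.7, 70.2 and 67.4 CPM (-1.88 ± 0.14), and Rsad2 (viperin) had 0, 0.984 and 1.31 CPM against 11.4, 16.04 and 11.5 CPM (-3.99 ± 0.69). The antiviral GTPase Mx1 had no count in Th17n libraries and 2.75, 3.72 and 5.14 CPM in Th17p libraries, at least 37.9-fold lower. Smaller differences were those of Lgals3bp (-1.28 ± 0.15), Parp9 (-1.02 ± 0.10), Trim25 (-0.97 ± 0.14) and Irf9 (-0.51 ± 0.11). Isg15 (-1.83 ± 0.37) and Oas3 (-1.47 ± 0.26), like Rsad2 chosen after their values were seen, lost their calls without animal 2 (-1.77 and -1.33), and the number lower was then 14. The activators Stat2 (-0.24) and Irf1 (-0.18) did not pass. Neither did Rtp4 (-3.30), Oas2 (-3.18), Oas1a (-3.02), Ifit3 (-2.81), Ifit1 (-1.97) and Oasl1 (-1.85). The interferon genes Ifng and, among receptors, Ifnar1 (0.03) and Ifngr1 (0.06) gave no call, Ifng for want of counts. The partner chains Ifnar2 and Ifngr2 were higher in Th17n cells, as given above with the other receptors.

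Interferon-inducible GTPases, which attack membranes of intracellular microbes, were lower in 14 of 17 cases (10.5% over all genes, list median -2.20). Gbp2 had 51.6, 52.4 and 55.3 CPM in Th17n and 615, 246 and 430.4 CPM in Th17p libraries (-3.02 ± 0.29), Gbp7 had 0.977, 1.31 and 1.05 CPM against 18.6, 13.7 and 20.9 CPM (-3.98 ± 0.46) and Gbp4 had 4.64, 9.51 and 9.72 CPM against 49.2, 48.1 and 56.8 CPM (-2.67 ± 0.28). Gbp5 (-2.01 ± 0.27), Gbp8 (-2.20 ± 0.35) and Irgm1 (-1.48 ± 0.21) followed. Iigp1, named after its value was seen, had 0.244, 0.219 and 0.0876 CPM in Th17n and 11.9, 10.5 and 13.4 CPM in Th17p libraries (-6.003 ± 0.85). Igtp (0.04) and Irgm2 (-0.08) were level with 0 and did not pass. Gbp and Tgtp genes are close paralogs, so the division of reads among them is uncertain. The count stayed within 1.5 times of 14 in all 20 alternatives.

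Promoters of 3 interferon-inducible genes lower in Th17n cells are shown for the same reason, with capitals for GAAA followed after any 2 bases by GAAA, the core of the interferon-stimulated response element, on either strand. In 24 of 32851 windows these letters overlapped those of the STAT motif (TTCNNNGAA). The windows are chr3:142620413-142620712 on the plus strand for Gbp2, chr3:142530086-142530385 on the plus strand for Gbp7 and chr12:26456403-26456702 on the minus strand for Rsad2.
Gbp2: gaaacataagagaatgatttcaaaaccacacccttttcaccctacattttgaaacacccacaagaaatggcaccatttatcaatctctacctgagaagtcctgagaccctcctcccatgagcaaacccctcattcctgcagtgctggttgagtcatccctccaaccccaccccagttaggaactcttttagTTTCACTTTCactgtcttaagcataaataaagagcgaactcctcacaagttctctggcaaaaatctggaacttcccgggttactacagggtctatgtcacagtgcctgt
Gbp7: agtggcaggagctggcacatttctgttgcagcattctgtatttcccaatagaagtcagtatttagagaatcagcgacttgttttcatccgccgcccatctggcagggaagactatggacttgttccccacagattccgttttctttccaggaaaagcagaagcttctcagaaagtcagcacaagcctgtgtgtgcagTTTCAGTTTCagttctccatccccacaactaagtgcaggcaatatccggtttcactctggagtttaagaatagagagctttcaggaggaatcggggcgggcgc
Rsad2: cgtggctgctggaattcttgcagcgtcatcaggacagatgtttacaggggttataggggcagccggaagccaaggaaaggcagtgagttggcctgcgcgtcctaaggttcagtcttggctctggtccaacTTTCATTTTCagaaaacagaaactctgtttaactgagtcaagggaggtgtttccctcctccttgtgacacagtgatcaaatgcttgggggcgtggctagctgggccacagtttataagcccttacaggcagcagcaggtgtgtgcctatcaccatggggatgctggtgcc
The letters were found in all 9 GTPase genes with a window, of which 7 were lower and 2, Igtp and Irgm2, did not pass. They were in 11 of 28 interferon response genes with a window (39.3%) and in 348 of 9152 tested genes (3.80%). Of the 19 interferon response genes with a window that were lower in Th17n cells, 6 held them (31.6%). That share was below the 39.3% of all members with a window. In the part before the start alone the numbers were 9 of 9, 8 of 28, 299 of 9152 and 4 of the 19 lower genes. The first match lay 59 bases before the start in Gbp2, 53 in Gbp7 and 120 in Rsad2. Both lists hold known interferon-inducible genes, so high shares were likely beforehand. Whether these letters bear on the difference between the cultures was not tested. GTCTAGAC, the palindrome bound by SMAD3 and SMAD4, was in none of the 19 TGF-beta pathway genes with a window and in 29 of 9152 tested genes (0.317%).

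**Figure D4:**
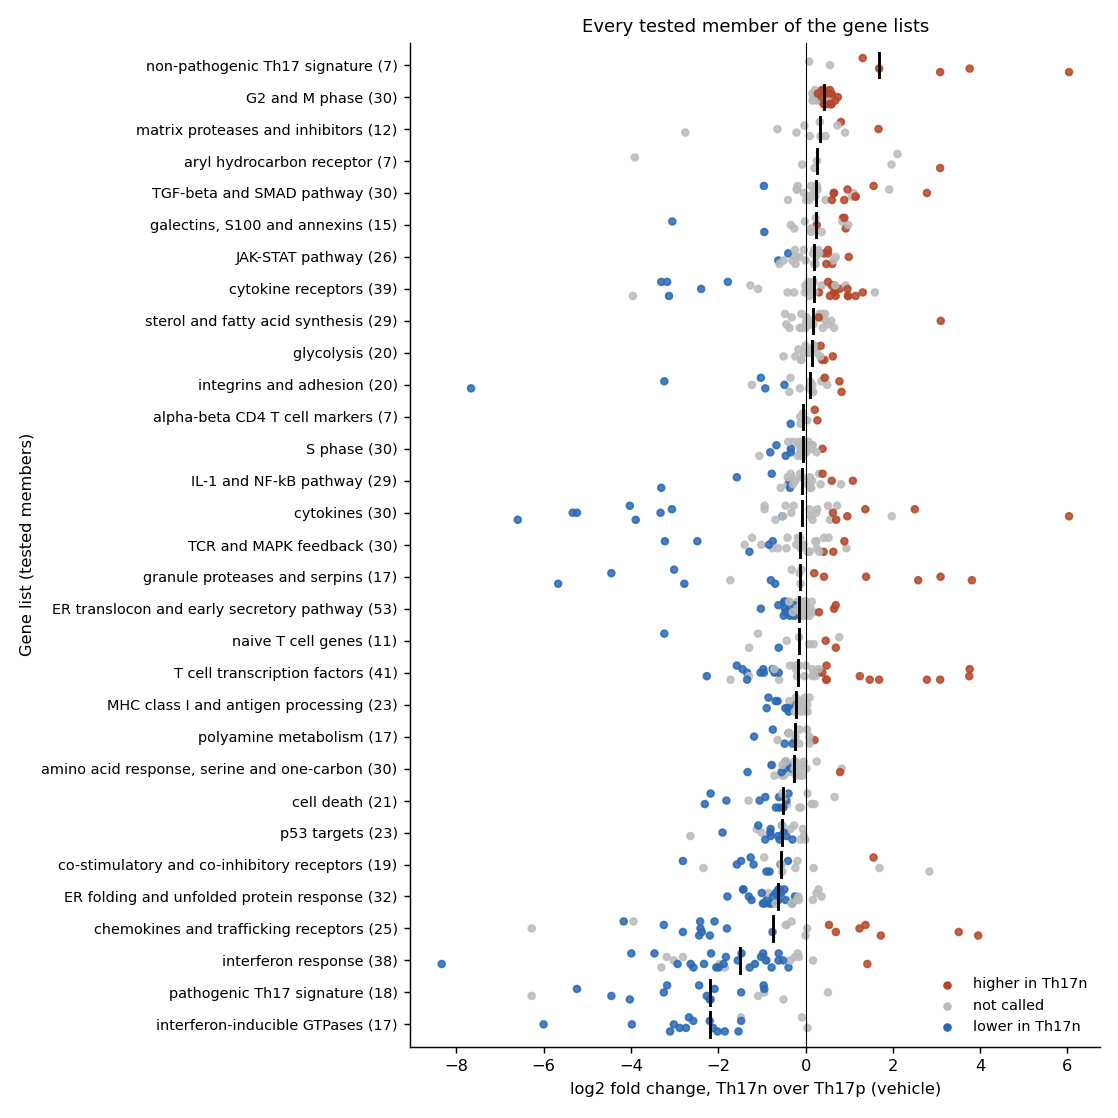
Each point is a tested member of a gene list, placed by its log2 fold change of Th17n over Th17p, with the number of tested members in brackets and the list median as a black bar. Lists are ordered by median, with the non-pathogenic signature (1.69) at the top and the interferon-inducible GTPases (-2.20) at the bottom, and the bars of most other lists stand near 0.

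Antigen presentation shared members with these lists. Of 23 MHC class I genes 9 were lower and none higher (10.5% and 9.47% over all genes, list median -0.22). Among the lower ones were B2m (-0.39 ± 0.09), H2-T23 (-0.46 ± 0.09), the immunoproteasome subunit Psmb10 (-0.85 ± 0.16) and the chaperones Calr and Pdia3. The main class I chains H2-K1 (0.02) and H2-D1 (-0.02) did not pass. The count was 5 without animal 1 or animal 3, and B2m was not called without animal 3 (-0.30).

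Co-stimulatory and co-inhibitory receptors (19 tested) included 9 lower and 1 higher in Th17n cells (median -0.57). Icos (above), Cd28 at 210.1, 213 and 212 CPM in Th17n and 439, 352 and 392 CPM in Th17p libraries (-0.90 ± 0.10), and the inhibitory receptor Tigit at 19.4, 14.1 and 17.3 CPM against 109.8, 112 and 135 CPM (-2.81 ± 0.33) were lower. So were the inhibitory ligands Cd274 (PD-L1, -1.26 ± 0.14) and Pdcd1lg2 (PD-L2, -1.19 ± 0.19) and the receptor Btla (-0.82 ± 0.11). Cd86 was higher (1.56 ± 0.40; not called with the 6 libraries alone, 1.56, or without animal 3, 1.44). Among 30 feedback genes of T cell receptor and MAPK signalling 5 were lower and 3 higher (10.5% and 9.47% over all genes). The ERK phosphatase Dusp6 had 29.2, 25.6 and 22.5 CPM in Th17n and 149, 149 and 132 CPM in Th17p libraries (-2.48 ± 0.17), and the activation marker Cd69 had 84.97, 97.4 and 92.3 CPM against 144, 176 and 143 CPM (-0.75 ± 0.10). Dusp2, a nuclear phosphatase, differed by -1.29 ± 0.25, and Nfatc2 was higher (0.64 ± 0.13). Of 15 galectin, S100 and annexin genes 4 were higher and 2 lower. Vimentin (Vim), listed with them, had 2625, 2396 and 2401 CPM in Th17n and 1374, 1341 and 1288 CPM in Th17p libraries (0.89 ± 0.08), and galectin-1 (Lgals1) had 710.4, 641 and 637 CPM against 414, 369.8 and 315 CPM (0.86 ± 0.10). S100a6 was lower, with 3.91, 5.36 and 6.66 CPM against 62.4, 42.5 and 28.8 CPM (-3.05 ± 0.44). Among 12 matrix protease genes Adam19 was higher, at 65.7, 64.5 and 63.5 CPM against 21.6, 19.6 and 19.6 CPM (1.67 ± 0.16). The feedback genes numbered 3 lower and 1 higher without animal 2, and 8 lower and 6 higher with the animal as a block, and the galectin count of 4 was 2 without animal 2 and 7 in the 6 libraries alone.

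In Th17n cells 22 of the 30 genes of G2 and M phase were higher and none lower, by small amounts (median 0.42). For this and the next lists, the shares over all genes were 9.47% higher and 10.5% lower. Ckap2l, a spindle protein, had 114, 109.9 and 107 CPM in Th17n and 67.7, 66.9 and 71.2 CPM in Th17p libraries (0.68 ± 0.08), and Kif23 (0.74 ± 0.12), Ube2c (0.56 ± 0.08), Nusap1 (0.59 ± 0.10), Ccnb2 (0.59 ± 0.11) and Aurkb (0.49 ± 0.09) were higher. The number was 11 without animal 2 and 9 on log2(TPM + 1). Of 30 S phase genes 5 were lower and 1 higher, with the replication licensing factor Cdc6 at 45.2, 42.8 and 48.5 CPM against 75.5, 69.4 and 72.3 CPM (-0.67 ± 0.10) and the cyclin Ccne2 at -0.81 ± 0.14. That count of 5 was 3 without animal 1 and 2 without animal 2. Targets of p53 (23 tested) were lower in 12 cases and higher in none (median -0.54). The p53 ubiquitin ligase Mdm2 had 109, 135 and 129 CPM in Th17n and 220.4, 216 and 215 CPM in Th17p libraries (-0.80 ± 0.10), the desmosomal protein Perp 14.7, 18.8 and 23.03 CPM against 48.5, 90.4 and 73.5 CPM (-1.90 ± 0.25), and Trp53inp1 (-0.63 ± 0.11), Aen (-0.60 ± 0.12) and Plk2 (-1.08 ± 0.21) were lower, while the cell cycle inhibitor Cdkn1a did not pass. Without animal 2 the number was 7. Cell death genes (21 tested) were lower in 11 cases and higher in none (median -0.51). They include the inflammatory caspase Casp4 at 5.01, 8.53 and 7.09 CPM in Th17n and 30.2, 42.9 and 29.8 CPM in Th17p libraries (-2.31 ± 0.26), Casp6 (-1.05 ± 0.15) and the BH3-only protein Bcl2l11 (BIM, -1.82 ± 0.26). That number was 6 without animal 1, 7 without animal 2 and 7 without the Th17n library of animal 1.

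For lists of metabolism and translation the counts depended on which animals were included. Of 17 polyamine genes 5 were lower and 1 higher. Mat2a, which makes S-adenosylmethionine, had 119.8, 100.0 and 131 CPM in Th17n and 265, 264 and 266 CPM in Th17p libraries (-1.18 ± 0.15), and Amd1, which decarboxylates it for polyamine synthesis, had 109, 125 and 126 CPM against 177, 168 and 158 CPM (-0.48 ± 0.08). Odc1, the target of DFMO, did not pass (-0.25 ± 0.13; called without animal 1, -0.38, and without its Th17p library, -0.39). The number lower was 3 without animal 1, 2 without animal 2 and 8 in the blocked fit of 6 libraries. Of 20 glycolysis genes 4 were higher and of 29 sterol and fatty acid genes 2 were higher (Cd5l and Srebf2), with none lower. Srebf2 lost its call in 10 of 20 alternatives (0.17 to 0.33), and the sterol count was 13 in the blocked fit of 6 libraries. The glycolysis count was 0 without animal 2 and on log2 TPM, and 8 in the 6 libraries alone. Of 80 cytosolic ribosomal protein genes 29 were higher and 2 lower (median 0.24), but 1 was higher without animal 2, 8 without animal 1, 10 without animal 3, 13 without scaling factors and 49 with the animal as a block. Rpsa had 6577, 6517 and 6296 CPM in Th17n and 5294, 4967 and 4876 CPM in Th17p libraries (0.36 ± 0.06). Of 47 proteasome subunits 17 were lower and none higher, but 9 were lower without animal 1, 5 without animal 2 and 8 without animal 3. Psma3 differed by -0.35 ± 0.07. Of 45 initiation factor genes 7 were higher and 9 lower, with Eif4a2 at 0.50 ± 0.08 and Eif1a at -0.65 ± 0.07. Those numbers were 2 and 2 without animal 2, 3 and 4 without animal 1, and 2 and 4 without animal 3. Of 76 mitochondrial ribosomal protein genes, 3 passed upward and 6 downward (0 and 3 without animal 2, 1 and 18 on log2(TPM + 1)), and among 81 genes of the respiratory chain 6 were higher and 1 lower (3 higher without animal 2 or animal 3, 12 lower on log2(TPM + 1)). These shares were under those over all genes (9.47% higher and 10.5% lower).

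Marker genes of other cell types summed to at most 36.03 CPM a list in every library, apart from the myeloid list, which holds Cst3. B cell markers summed to 8.50 to 17.1 CPM in Th17n and 27.4 to 36.03 CPM in Th17p libraries. In Th17p libraries most of that was Ebf1, an early B cell factor, which was lower in Th17n cells, with 4.64, 8.53 and 3.50 CPM against 19.9, 33.9 and 22.8 CPM (-2.21 ± 0.32). The B cell receptor chain Cd79b was higher, with 7.08, 7.87 and 4.38 CPM against 1.87, 1.05 and 2.30 CPM (1.86 ± 0.35; not called without animal 2, 1.43). CD8 T cell markers (2 tested, none called) summed to 13.7 to 20.8 CPM in Th17n and 16.4 to 26.2 CPM in Th17p libraries. NK and innate lymphoid markers (2 tested, none called) summed to 1.71 to 3.59 CPM in Th17n and 0.881 to 2.79 CPM in Th17p libraries. Myeloid markers (2 tested, none called) summed to 108 to 128 CPM in Th17n and 113 to 131 CPM in Th17p libraries, nearly all of it Cst3, at 123, 119 and 103 CPM in Th17n and 114, 108 and 126 CPM in Th17p libraries. Gamma-delta T cell markers summed to 0.0876 to 0.437 CPM in Th17n and 0.349 to 1.21 CPM in Th17p libraries, and erythroid and platelet markers to 0 to 0.0876 CPM in Th17n and 0 to 0.367 CPM in Th17p libraries. The part of the B cell markers in the other differences was not tested.

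The difference between the cultures was then set beside the same difference with DFMO, in other libraries of the same animals. With the inhibitor, 927 genes stood higher in Th17n cells (8.04% of genes tested) and 1012 stood lower (8.78%), 16.8% together. The difference of Th17n minus Th17p, DFMO minus vehicle, was called for 574 genes (4.98%), 303 upward (2.63%) and 271 downward (2.35%). The counts were 58 and 39 without animal 1, 18 and 9 without animal 2 and 154 and 177 without animal 3. Il17a had 83.9, 41.8 and 211 CPM in DFMO Th17n libraries and 26.03, 10.2 and 16.9 CPM in DFMO Th17p libraries, so that it was higher in Th17n cells with the inhibitor (2.69 ± 0.52, adjusted p = 0.0028 in edgeR's quasi-likelihood test). The vehicle value was -0.94, and the difference between both was 3.63 ± 0.69 (adjusted p = 0.011). Il17f had 521, 548 and 886 CPM in DFMO Th17n libraries against 174, 188 and 117 CPM in DFMO Th17p libraries, a difference between contrasts of 2.97 ± 0.51 (adjusted p = 0.0073). Il10, low in vehicle at 3.42, 2.19 and 1.58 CPM in Th17n and 0.771, 2.79 and 1.29 CPM in Th17p libraries, had 21.1, 25.2 and 10.1 CPM in DFMO Th17n and 0.670, 0.0706 and 0.681 CPM in DFMO Th17p libraries (4.80 ± 0.87, adjusted p = 0.0039). The call was lost for Il17a whichever animal was left out (2.99 to 4.14), for Il17f without animal 1 (3.24) or animal 3 (2.55), and for Il10 without animal 2 (3.28).

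**Figure D5:**
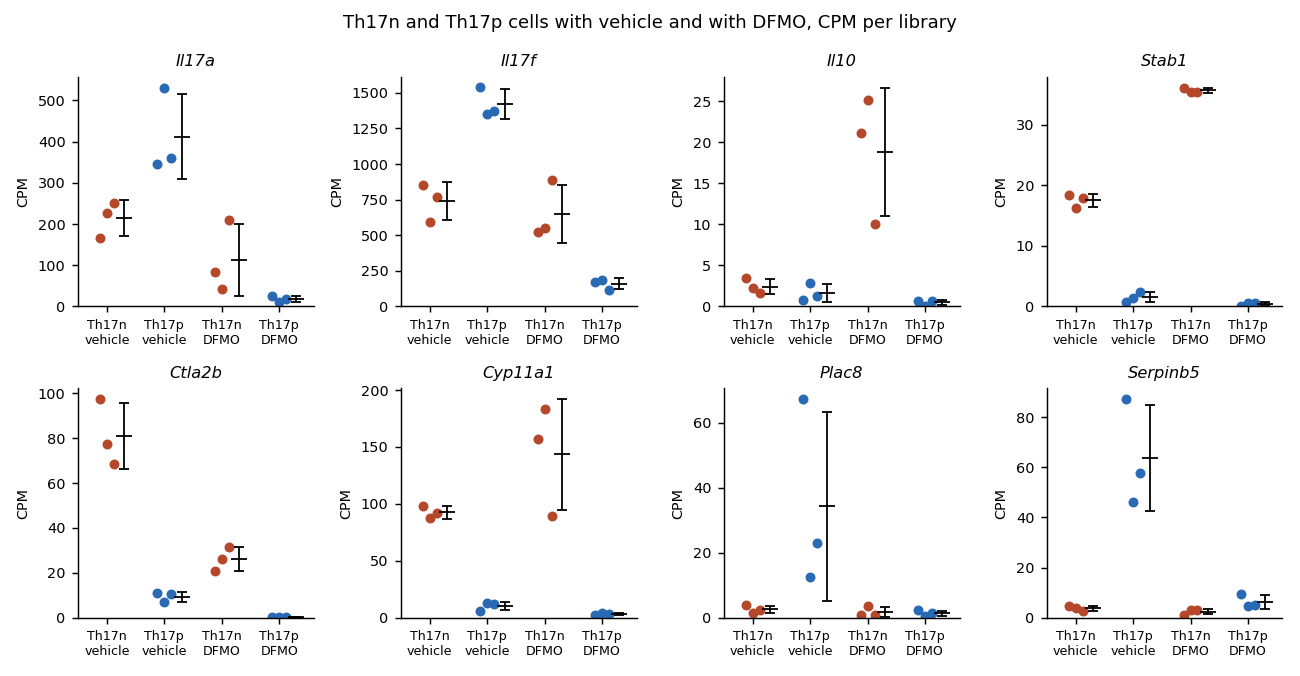
CPM of each library (points) with the mean and SD (bar, n = 3 animals) for 8 genes, in Th17n and Th17p cells with vehicle and then with DFMO, each axis from 0. Th17n libraries lie below Th17p libraries for Il17a and Il17f with vehicle and above them with DFMO.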

How the data were processed

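Per the submitters' processing notes, Bowtie2, RSEM and the build GRCm38.p3 were used. Tool versions, the annotation and the strand setting were not given in the sources used. The authors deposited expected counts (estimated, not normalized, 12.2% not whole) and TPM per gene and run, for 20817 symbols in 36 columns. Of the symbols 20079 matched GENCODE M21. Runs of a library differed little beyond counting error (chi-square per degree of freedom 1.20 to 1.41 in the 6 libraries, 3.64 to 7.17 between animals of a group). Counts of both runs were therefore summed and rounded. A robust quasi-likelihood fit in edgeR 4.0.16 (R 4.3.3) held all 18 libraries and 1 mean for each group, after TMM scaling and edgeR's filter for low counts by group. P values are two-sided and Benjamini-Hochberg adjusted. Alternatives used limma 3.58.1 on log2 TPM and DESeq2 1.42.0. The fit was tested on simulated data.

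Replicates are separate animals. Libraries with the same animal number deviated from their group means together (correlation 0.10 to 0.13 for the 3 pairs of Th17n and Th17p libraries, median -0.06 for unlike animals), and the number is the animal's in the labels. A fit that blocks on the animal was among the alternatives.

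Genes named are the 15 largest increases and 15 largest decreases among called genes with a mean log2 CPM of at least 2 and 1 sign in all animals, all called cytokines, receptors, chemokines and T cell factors, the called members of smallest p in each list (up to 6), and a fixed set of Th17 genes. Some genes that this rule takes are not reported here, some called members of small lists are given by count only, and 26 genes, among them Atf6, Bmpr2, Canx, Casp1, Cd86, Herpud1, Irf8, Irf9, Itgb7, Pdia4, Serpinb1a, Smad3 and Syvn1, and list members that did not pass, were named after their values were seen. Members, lists and rules were chosen with earlier results of these data known. Promoter windows are RefSeq's (32851 windows, GRCm38.p6) and lack some genes. Counting intervals (95%, Clopper-Pearson) and the floor of 3 counts cover counting error only.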

Additional observations from a re-analysis of the deposited data

Results flagged for a closer look

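Of 52 tested genes among the largest differences and the fixed set, 13 had a difference between Th17n and Th17p that itself differed between DFMO and vehicle (DFMO minus vehicle, edgeR's quasi-likelihood test at an adjusted p of 0.05, which called 4.98% of all genes). The largest differences were picked by their vehicle value, which is part of this contrast. The 13 of 52 can therefore not be set against the 4.98%. How far this choice shaped the values below was not tested. Il17a (3.63 ± 0.69), Il17f (2.97 ± 0.51) and Il10 (4.80 ± 0.87) are described above. For 5 genes higher in Th17n cells the fold difference was larger with DFMO. Stab1 had 36.1, 35.5 and 35.4 CPM in DFMO Th17n and 0.112, 0.564 and 0.596 CPM in DFMO Th17p libraries (2.77 ± 0.47, adjusted p = 0.002), Cyp11a1 had 157, 184 and 89.6 CPM against 2.35, 4.37 and 3.06 CPM (2.27 ± 0.42), and Ctla2b had 20.97, 26.05 and 31.3 CPM against 0.335, 0.141 and 0.170 CPM (3.84 ± 0.76). Pdpn (3.32 ± 0.82) and Lbp (2.24 ± 0.60) went the same way. For Ctla2b the level was lower with DFMO than with vehicle in both cultures, and its gap in CPM was smaller (vehicle values above). The DFMO Th17p levels of Stab1 and Ctla2b were near the low end of the scale, so their ratios rest on few counts. For 3 genes lower in Th17n cells the fold difference was smaller with DFMO: Tnip3 (2.39 ± 0.52), Serpinb5 (2.80 ± 0.55) and Enpp2 (2.08 ± 0.49). Plac8 was lower in Th17n cells with vehicle and did not pass with DFMO (0.46 ± 0.80), a difference of 4.21 ± 1.06. Enpp2 had 3.80, 4.41 and 3.35 CPM in DFMO Th17n and 11.7, 13.1 and 8.34 CPM in DFMO Th17p libraries, and 18.2, 20.00 and 9.11 CPM in vehicle Th17n and 219, 154 and 193 CPM in vehicle Th17p libraries. Cd4 differed by -0.46 ± 0.11, with 243, 254 and 289 CPM in DFMO Th17n and 308, 319 and 304 CPM in DFMO Th17p libraries (-0.25 ± 0.07), and 403, 374 and 373 CPM in vehicle Th17n and 331, 310.1 and 352 CPM in vehicle Th17p libraries (0.21 ± 0.07, a call lost in 15 of 20 alternatives).

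All 13 calls were lost on leaving out at least 1 animal, with the sign kept. The values were 3.04 for Stab1 without animal 2, 2.34 and 1.88 for Lbp without animals 1 and 2, 2.37 and 2.12 for Cyp11a1 without animals 1 and 2, 4.40 and 3.75 for Ctla2b without animals 1 and 2, and 2.13 and 2.46 for Enpp2 without animals 1 and 2. Cd4 had -0.36 and -0.38 without animals 1 and 2, and Serpinb5 2.65 and 2.37 without animals 2 and 3. Pdpn (2.33 to 3.82), Tnip3 (1.87 to 2.72) and Plac8 (2.85 to 4.81) lost the call whichever animal was left out.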

How the results depend on the processing

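Of the 226 genes followed across 20 alternatives, 156 kept their direction and their side of the threshold in all of them, and 200 in all but those that leave out an animal or a library. Of the 2303 called genes, 2248 were also called with DESeq2's size factors, 2285 with the animal as a block, 2034 without scaling factors and 1735 on log2(TPM + 1). The number higher in Th17n cells was 626 on log2(TPM + 1) and 577 on log2(TPM + 0.1), with 1727 and 1649 lower and the median of all genes shifted by -0.10 and -0.12. The share of calls that were higher was 47.4% in the reported fit, 34.4% without scaling factors, 26.6% on log2(TPM + 1) and 25.9% on log2(TPM + 0.1). Leaving out an animal or a library gave 444 to 1003 genes higher and 500 to 1004 lower, with the fewest without animal 2. For the difference between DFMO and vehicle it gave 18 to 154 genes upward and 9 to 177 downward. Il10 reversed without animal 1 (-0.11, range -0.11 to 1.23 over left-out animals and libraries) and Smad7 with run 2 alone (-0.0097), both not called; the cause was not tested. With the animal as a block 1270 genes were higher and 1318 lower, and 399 and 384 for the difference with DFMO. The block in the fit of 18 libraries changed the call of none of the 226 genes. It moved counts of lists by over 1.5 times for the ribosomal proteins and the feedback genes as given above, to 5 higher for the IL-1 and NF-kB list, 5 for the sterol list and 2 for the co-stimulatory list, and to 1 lower for glycolysis. Groups hold 3 animals each, and genes of few counts carry the counting intervals given above.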

Other observations

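The iTreg_Vehicle libraries of the same animals, grown with TGF-beta 1 and without IL-6, give a further level for the genes that differed most; they were not part of the tests above. Aqp3 had 54.3, 22.8 and 14.5 CPM and Tmem176a 20.98, 11.8 and 7.41 CPM in iTreg libraries, while Il9 had 34.97, 21.5 and 29.99 CPM. Cyp11a1 (11.1, 9.19 and 8.17 CPM) and Maf (1.08, 0.276 and 0.758 CPM) were low there. Of the genes lower in Th17n cells, Lum had 0.108, 0 and 0 CPM and Il22 0, 0 and 0 CPM, while the GTPase Iigp1 had 72.4, 39.5 and 90.7 CPM and Gbp2 65.1, 53.3 and 94.3 CPM. The chaperone Hspa5 had 671, 754 and 866 CPM. Summed over the 17 interferon-inducible GTPases, iTreg libraries had 1300, 1080 and 1515 CPM. That sum was 479, 492 and 476 CPM in Th17n and 1400, 964 and 1344 CPM in Th17p libraries. No test was run on these values.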
